A study of Rattus norvegicus with 36 samples.

Results

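The genes described here encode the proteins that make microRNAs and carry out microRNA silencing. They are the nuclear processing genes *Drosha* and *Dgcr8*, the export gene *Xpo5*, the cytoplasmic processing genes *Dicer1* and *Tarbp2*, the Argonaute genes *Ago1*, *Ago2* and *Ago3*, and the GW182 genes *Tnrc6a* and *Tnrc6b*. They were chosen by gene name, and all 10 of the 10 listed were found among the 24275 genes in the deposited tables. They were measured in H9C2, a line of rat cardiac myoblasts. The cells received 25 nmol/L of a mimic, a synthetic RNA that stands in for a microRNA, and after 24 h of transfection spent 24 h in hypoxia or normoxia. Hypoxic cells were in low-glucose medium without serum and normoxic cells in fresh medium, so oxygen and medium cannot be told apart. The mimics were a control (MC), miR-125b and 4 isomiRs of miR-125b changed at the 3′ end (Plus A, and the shortened Trim A, Trim AG and Trim AGU), where an isomiR is a microRNA with a shifted end. The labels number the trimmed mimics 1 to 3, and these were taken as Trim A, Trim AG and Trim AGU in that order. Of 36 libraries in 12 groups, counts of 33 libraries in 11 groups were used, with 3 per group. Libraries of Normoxia MC were not analysed here. The labels do not say whether the libraries of a group came from separate cultures, so the p-values measure only the spread between these libraries.

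MicroRNAs are cut from primary transcripts in the nucleus by the Microprocessor, in which DROSHA is the nuclease and DGCR8 binds the RNA. Exportin-5 carries the hairpin precursor to the cytoplasm, where DICER1 and its partner TRBP, the product of *Tarbp2*, release the short duplex. One strand is kept by an Argonaute protein, which finds messenger RNAs through the seed of the microRNA, and the GW182 proteins bound to Argonaute recruit the enzymes that shorten poly-A tails and block translation. A transfected mimic enters after the nuclear steps and depends on the Argonaute and GW182 proteins. The measurements are of messenger RNA in bulk cells, so fewer cells that express a gene and less RNA per cell cannot be told apart.

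The mimics differ at the 3′ end and share the seed, bases 2 to 8 from the 5′ end, shown in capitals. The sequence of miR-125b is the mature form in RefSeq, from the entry at GRCr8 chr11:29732588-29732609 on the plus strand. The authors also name a rat locus on chromosome 8, which is not shown here. The other sequences follow from that of miR-125b and the names of the isomiRs. The sequences of the purchased mimics were not used here.
miR-125b: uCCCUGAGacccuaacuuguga
Plus A: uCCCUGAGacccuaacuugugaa
Trim A: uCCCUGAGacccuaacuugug
Trim AG: uCCCUGAGacccuaacuugu
Trim AGU: uCCCUGAGacccuaacuug

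Total counts were 28361216 to 42672584 per library, with a median of 29923694, and the 10 genes took 0.0416% to 0.0722% of them. The myoblast genes *Myod1* (17.1 to 146 CPM, the count scaled to a common library total) and *Myog* (10.4 to 359 CPM) were detected in every library, as was *Gata4* (8.72 to 16.4 CPM). The myoblast gene *Des* was low, at 0.855 to 4.98 CPM, and the cardiac genes *Nkx2-5* and *Myh6* reached 0.987 and 0.894 CPM at most. The cardiac gene *Tnnt2* was at 9.22 to 316 CPM, *Actc1* at 0.0664 to 35 CPM and *Tnni3* at 0.855 to 3.43 CPM. *Myf5*, *Tbx5* and *Ryr2* were at or near 0, and *Ptprc*, a leukocyte marker, reached 0.188 CPM at most. Of the fibroblast genes, *Col1a1* was at 5400 to 27700 CPM and *Thy1* at 79.8 to 261 CPM. *Dcn* was at 0.797 to 44.2 CPM, and *Pdgfra* reached 0.846 CPM at most. Replicate 2 of Hypoxia Trim AGU stood apart, with 16981 genes detected against 18342 to 19451 in the other libraries. It also held the lowest share of counts for the 10 genes. In Hypoxia Trim A and Hypoxia Trim AG, replicate 1 was above both others for *Drosha*, *Xpo5*, *Dicer1*, *Tnrc6a* and *Tnrc6b*. Replicate 1 of Normoxia miR-125b stood apart for *Ago1*, at 9.35 CPM against 12.2 and 11.3 CPM. Replicate 1 of Normoxia Plus A did so upward, at 14.2 CPM against 9.12 and 8.80 CPM. The same held for *Drosha* (67.9 against 75.8 and 77.1, and 75.6 against 72.2 and 73 CPM). It held for *Tnrc6a* as well (111 against 121 and 127, and 123 against 111 and 114 CPM). For these genes each library was nearer to replicates 2 and 3 of the other group, but for *Dgcr8* it was not. Labels were used as given, and whether they are right for these libraries was not tested.

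Levels between genes were compared as FPKM, the authors' count per length of gene and size of library. *Tarbp2* had the highest median over the 33 libraries, at 22.9 FPKM, followed by *Xpo5* at 20.9, *Drosha* at 17.4 and *Tnrc6a* at 15.6 FPKM. *Dgcr8* was at 10.3 FPKM, *Dicer1* at 8.79, *Ago2* at 6.55 and *Tnrc6b* at 4.48 FPKM. *Ago1* and *Ago3* were lowest, at 3.20 and 1.85 FPKM. Some neighbours in this order could not be separated: *Dicer1* was above *Ago2* in 18 of 33 libraries, *Drosha* above *Tnrc6a* in 24 and *Tarbp2* above *Xpo5* in 26. *Tnrc6a* was above *Dgcr8* in 32 of the 33. Among genes with counts, the mean FPKM ranged from percentile 52.7 for *Ago3* to percentile 84.6 for *Tarbp2*.

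The genes also differed in how far their level moved between groups. The ratio of the highest to the lowest group mean in FPKM was 3.28 for *Ago2*, 2.81 for *Ago1*, 2.32 for *Ago3* and 2.21 for *Tnrc6b*. It was 1.73 for *Dicer1* and 1.69 for *Dgcr8*, and 1.27 to 1.42 for *Xpo5*, *Tnrc6a*, *Drosha* and *Tarbp2*. *Ago1* and *Ago3* are neighbours on the minus strand of chromosome 5 in the deposited tables, *Ago3* at 144364269 to 144436509 and *Ago1* at 144448792 to 144479306. *Ago2* lies on chromosome 7 at 114339434 to 114380613. The genome build of these positions is not given in the sources used here.

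**Figure D1:**
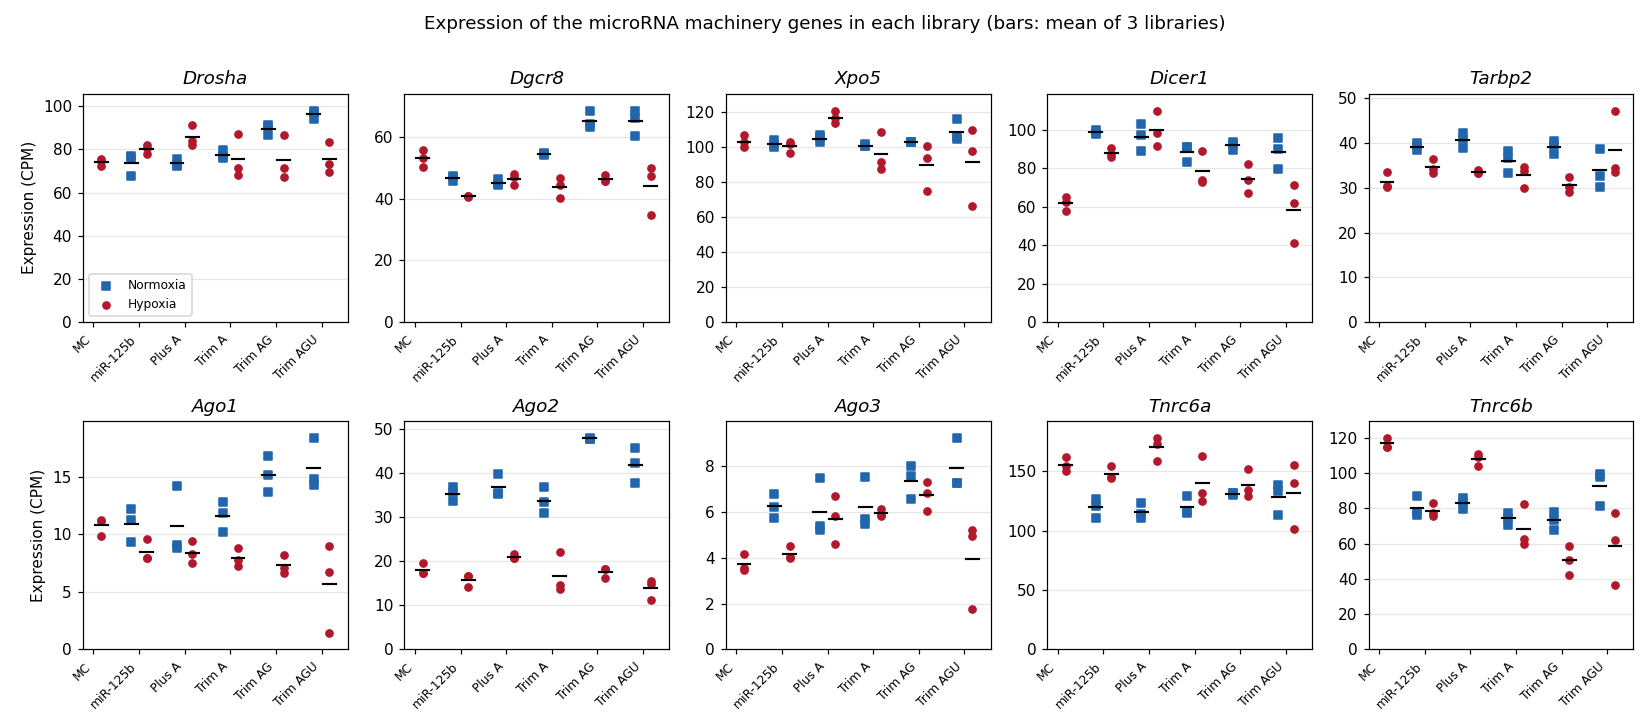
Expression of each gene in CPM (linear axis from 0) in every library, by mimic, with normoxia as blue squares, hypoxia as red circles and the mean of 3 libraries as a black bar. *Ago2* lies at 31 to 47.9 CPM in normoxia and 11.3 to 22.1 CPM in hypoxia.

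Hypoxia was compared with normoxia under each mimic, a difference in both oxygen and medium. *Ago2*, whose protein can itself cut a perfectly matched target, was down-regulated in hypoxia under 5 of 5 mimics, by log2 fold changes of -0.92 to -1.55. *Dgcr8* and *Dicer1* were each called lower under 4 of 5, and *Tarbp2* and *Ago1* under 3, though several of these calls were lost in alternatives given below. *Tnrc6a* was the opposite, up-regulated under 2 mimics, with log2 fold changes above 0 under all 5. *Drosha* and *Xpo5* passed the test under none of the 5. Calls here and throughout are from edgeR's quasi-likelihood test at a Benjamini-Hochberg adjusted p below 0.05 over all genes tested, and log2 fold changes are the first group minus the second.

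Under miR-125b, 1 of the 10 genes was higher in hypoxia, where 24.7% of all genes tested were higher, and 6 were lower, where 26.1% were. Under Plus A, 2 were higher (23.9% of all genes) and 2 lower (25.3%). Under Trim A, 0 were higher (23.4%) and 4 lower (24.2%). Trim AG gave 0 higher (27.3%) and 6 lower (27.3% of all genes as well). Trim AGU gave 0 higher (15.4%) and 3 lower (14.8%). The median log2 fold change of the 10 genes was -0.25 under miR-125b and -0.06 under Plus A, and -0.21, -0.33 and -0.56 under Trim A, Trim AG and Trim AGU, beside 0.00 to 0.02 over all genes. Without replicate 1 of Hypoxia Trim A the genes lower under Trim A were 7, and without replicate 2 of Hypoxia Trim AGU those lower under Trim AGU were 7. Trim AGU had 5 called without replicate 1 of its hypoxia group and 1 without any single library of its normoxia group.

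*Ago2* was at 36.7, 33.6 and 35.6 CPM in the libraries of Normoxia miR-125b and at 14.1, 16.7 and 16.6 CPM in those of Hypoxia miR-125b. Group means were 35.3 ± 1.59 and 15.8 ± 1.48 CPM (SD, n = 3), which gave a log2 fold change of -1.24 (SE 0.0811, edgeR adjusted p = 2.8e-06). The groups did not overlap, and every hypoxia library was below every normoxia library for the other mimics as well. Under Trim AG the normoxia libraries were at 47.9, 47.7 and 47.7 CPM and the hypoxia libraries at 18.1, 16.2 and 18.3 CPM. This log2 fold change was -1.44 (SE 0.0766, edgeR adjusted p = 1.7e-06). The change was smallest under Plus A, at -0.92 (SE 0.0767, edgeR adjusted p = 1.0e-05), where hypoxia libraries had 20.7, 20.8 and 21.5 CPM against 35.4, 39.7 and 35.3 CPM. Under Trim A it was -1.09 (SE 0.169, edgeR adjusted p = 9.3e-04), with replicate 1 in hypoxia at 22.1 CPM and the others at 13.6 and 14.5 CPM. Under Trim AGU it was -1.55 (SE 0.155, edgeR adjusted p = 6.4e-04). The call held in all 13 alternatives for each mimic, with an adjusted p of 0.00758 at most.

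The other Argonaute genes, *Ago1* and *Ago3*, had lower counts and wider errors. Under Trim AG, *Ago1* was at 13.7, 16.8 and 15.2 CPM in normoxia and at 8.23, 6.69 and 7.05 CPM in hypoxia, a log2 fold change of -1.05 (SE 0.127, edgeR adjusted p = 1.5e-04) with no overlap. It also fell under Trim A (-0.63, SE 0.136, edgeR adjusted p = 0.00526) and miR-125b (-0.44, SE 0.133, edgeR adjusted p = 0.0196), where the libraries overlapped and the call was lost in 5 of 13 alternatives. Under Plus A the *Ago1* log2 fold change was -0.46, with overlapping libraries. It was not called by edgeR with all libraries of the pair, and was called by DESeq2 (adjusted p = 0.0254). Under Trim AGU the libraries in hypoxia were spread from 1.41 CPM in replicate 2 to 9.01 CPM, all below 14.3 to 18.4 CPM in normoxia. The log2 fold change of -1.47 had an SE of 0.521 (edgeR adjusted p = 0.0662), and without replicate 2 it was -1.04 (edgeR adjusted p = 0.00195). *Ago3* fell under miR-125b, from 6.78, 6.19 and 5.73 CPM to 4.02, 4 and 4.52 CPM (log2 fold change -0.66, SE 0.139, edgeR adjusted p = 0.00335). For Plus A, Trim A and Trim AG its log2 fold change was -0.12 to -0.19, with overlapping libraries. Under Trim AGU it was at 7.27, 7.24 and 9.22 CPM in normoxia and at 5.19, 1.76 and 4.93 CPM in hypoxia, without overlap. That log2 fold change was -0.98 (SE 0.359, edgeR adjusted p = 0.072), and it was -0.67 without replicate 2 of Hypoxia Trim AGU (edgeR adjusted p = 0.0211) and -0.99 by DESeq2 (adjusted p = 0.0257).

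For *Dicer1*, the nuclease that cuts precursors, Normoxia miR-125b was at 97.7, 99.9 and 98.1 CPM and Hypoxia miR-125b at 85.8, 87.3 and 90.4 CPM. The log2 fold change was -0.25 (SE 0.0443, edgeR adjusted p = 0.00128), and the libraries did not overlap. It was -0.25 under Trim A (SE 0.091, edgeR adjusted p = 0.04996), -0.30 under Trim AG (SE 0.084, edgeR adjusted p = 0.0143) and -0.58 under Trim AGU (SE 0.178, edgeR adjusted p = 0.0429). The call was kept in 12 of 13 alternatives under miR-125b, and in 4, 9 and 6 of 13 under Trim A, Trim AG and Trim AGU. The values under Trim A, Trim AG and Trim AGU moved with a correction for gene length, given below. *Tarbp2* fell under miR-125b (-0.26), Plus A (-0.38) and Trim AG (-0.35), with edgeR adjusted p-values of 0.0052, 7.7e-04 and 0.00411. Its Plus A libraries were at 40.9, 42.3 and 39.0 CPM in normoxia and 33.4, 34.1 and 33.4 CPM in hypoxia. In replicate 2 of Hypoxia Trim AGU it was at 47.3 CPM, its highest value in any library.

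In the nucleus, *Dgcr8* was at 68.6, 63.3 and 64.1 CPM in Normoxia Trim AG and at 47.7, 45.7 and 45.7 CPM in Hypoxia Trim AG. This was a log2 fold change of -0.49 (SE 0.0729, edgeR adjusted p = 5.0e-04). It was -0.28 under miR-125b, -0.39 under Trim A and -0.53 under Trim AGU, with edgeR adjusted p-values of 0.00151, 0.00285 and 0.0277. The call under Trim AGU was lost in 5 of 13 alternatives, among them the replicate block (edgeR adjusted p = 0.094). Only Plus A left it without a call, at -0.07, and there the libraries overlapped. *Drosha*, the partner of *Dgcr8*, had log2 fold changes of -0.31 to 0.11 and *Xpo5* of -0.23 to 0.05. Normalized by library size alone, both were called higher under Plus A (0.22 and 0.16, edgeR adjusted p = 0.0115 and 0.0284). Without replicate 1 of Hypoxia Trim A, replicate 1 of Hypoxia Trim AG or replicate 2 of Hypoxia Trim AGU, *Drosha* was called lower under Trim A (-0.22), Trim AG (-0.35) and Trim AGU (-0.36), with edgeR adjusted p-values of 0.00437, 0.00162 and 0.0323. *Xpo5* was then called lower under Trim A (-0.25) and Trim AG (-0.27), with edgeR adjusted p-values of 0.00202 and 0.0271.

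The proteins of the GW182 genes link Argonaute to deadenylation. *Tnrc6a* rose under Plus A from 123, 111 and 114 CPM to 178, 173 and 159 CPM (log2 fold change 0.44, SE 0.0624, edgeR adjusted p = 3.0e-04) and under miR-125b from 111, 121 and 127 CPM to 144, 154 and 145 CPM (0.23, SE 0.0545, edgeR adjusted p = 0.00704). In neither did the libraries overlap. *Tnrc6b* rose under Plus A from 83.4, 79.8 and 86.0 CPM to 111, 104 and 109 CPM (0.27, SE 0.0571, edgeR adjusted p = 0.00331). Under Trim AG the same gene fell from 67.9, 78.1 and 73.5 CPM to 58.9, 42.0 and 50.9 CPM (-0.53, SE 0.116, edgeR adjusted p = 0.00414). These changes were opposite in sign, and the comparisons share no library. The difference between them was not tested. The Plus A call was lost with all libraries in 1 fit (edgeR adjusted p = 0.128). Under Trim AGU, *Tnrc6b* was at 81.1, 99.4 and 97.6 CPM in normoxia and at 77.3, 36.8 and 61.9 CPM in hypoxia, without overlap (-0.64, SE 0.223, edgeR adjusted p = 0.063). Without replicate 2 of Hypoxia Trim AGU this value was -0.44 (edgeR adjusted p = 0.0266).

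**Figure D2:**
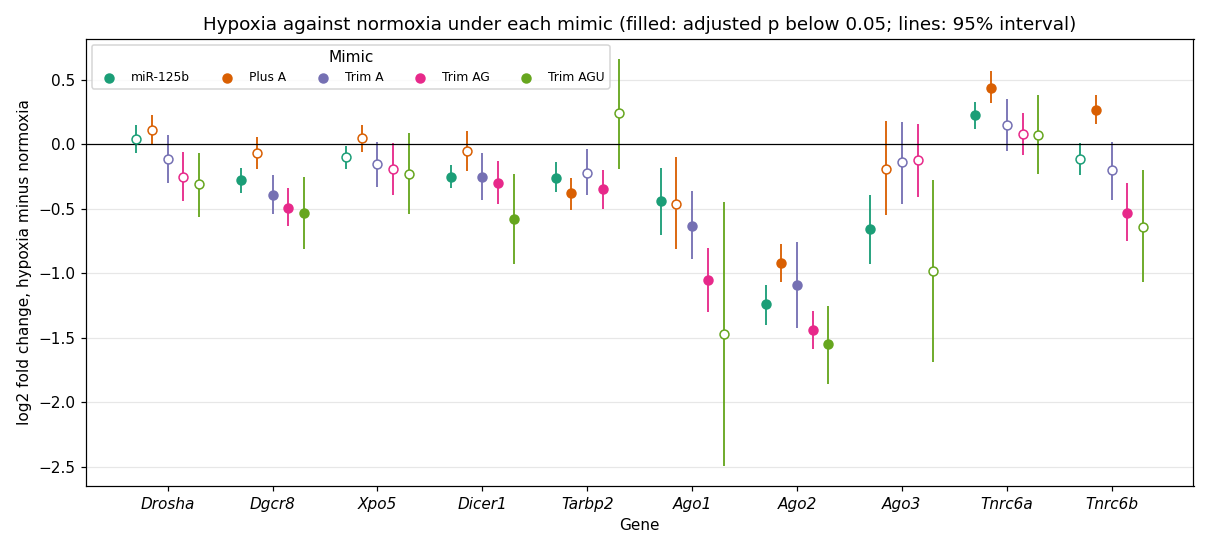
Log2 fold change of each gene between hypoxia and normoxia under each of 5 mimics (colours), with 95% intervals from the SE and filled points for an adjusted p below 0.05. *Ago2* is the gene with 5 filled points, from -0.92 to -1.55.

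Gene length moved with several of these values. Genes of 4000 bases or more had a median log2 fold change below that of genes under 2000 bases by 0.32 in Trim A, 0.32 in Trim AG and 0.62 in Trim AGU, hypoxia against normoxia, while for miR-125b they differed by -0.12 and for Plus A by 0.05. Of the 10 genes, 6 are at least 4000 bases long in the tables, and the Argonaute genes and *Tarbp2* are shorter. With a lowess trend on length removed, *Dicer1* had log2 fold changes of -0.00 under Trim A, -0.04 under Trim AG and -0.06 under Trim AGU, with edgeR adjusted p-values of 0.991, 0.665 and 0.686. *Tnrc6a* was then called higher under all 5 mimics, by 0.31 to 0.58. *Tnrc6b* had 0.16 under Plus A and -0.25 under Trim AG, both still called (edgeR adjusted p = 0.0396 and 0.0083), and -0.04 under Trim AGU (0.758). *Dgcr8* was still called under miR-125b (-0.22), Trim A (-0.23) and Trim AG (-0.32), and had -0.21 under Trim AGU (edgeR adjusted p = 0.202). *Ago2* stayed at -0.92 to -1.40 and was called under all 5. What part length has in these results was not tested.

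The mimics were next compared with MC in hypoxia, to see which machinery genes differed when miR-125b or an isomiR was present. *Dicer1* was higher than in MC for miR-125b, for Plus A, and for the shortened Trim A and Trim AG, and *Tnrc6b* was lower for miR-125b, Trim A, Trim AG and Trim AGU. *Ago1* was called lower for 4 mimics and *Dgcr8* for 3, while *Ago3* was higher for 3. *Ago2* was called for Plus A alone with all libraries. These 5 comparisons share the 3 MC libraries, so they are not independent of each other.

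Under miR-125b, 3 of the 10 genes were higher than in MC, where 29.5% of all genes tested were higher, and 3 were lower, where 30% were. Plus A had 6 higher (28% of all genes) and 2 lower (28.6%). Trim A had 2 higher (26%) and 3 lower (26.1%), and Trim AG 2 higher (29.8%) and 2 lower (29.6%). Trim AGU had 0 higher (15.3%) and 1 lower (14.6%). The median log2 fold change of the genes was -0.02, 0.18, -0.06, -0.04 and -0.08 in this order of mimics, beside -0.02 to 0.00 over all genes. The count for Trim A rose to 9 called without replicate 1 of Hypoxia Trim A, and that for Trim AGU to 2 without replicate 2 of Hypoxia Trim AGU. Trim A had 3 called without replicate 2 or 3 of Hypoxia MC or of Hypoxia Trim A. For Plus A, 5 were called without replicate 1 or without replicate 2 of Hypoxia MC.

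*Dicer1* was at 62.4, 57.9 and 65.3 CPM in Hypoxia MC. It was at 85.8, 87.3 and 90.4 CPM in Hypoxia miR-125b, a log2 fold change of 0.54 (SE 0.0454, edgeR adjusted p = 1.7e-06), and at 110, 98.5 and 91.4 CPM in Hypoxia Plus A, a log2 fold change of 0.72 (SE 0.0758, edgeR adjusted p = 2.4e-05). All libraries of both mimics were above all MC libraries. Trim A had 89.0, 73.0 and 73.8 CPM (0.39, SE 0.0892, edgeR adjusted p = 0.00678) and Trim AG 82.2, 67.2 and 74.1 CPM (0.33, SE 0.0864, edgeR adjusted p = 0.00974). These also lay above MC without overlap. Hypoxia Trim AGU had 71.5, 41 and 61.7 CPM, on both sides of MC, and its log2 fold change was 0.03 (95% interval -0.29 to 0.36). With the length trend removed the values for Trim A, Trim AG and Trim AGU were 0.66, 0.62 and 0.52, with edgeR adjusted p-values of 2.8e-05, 4.0e-05 and 0.0054. The *Dicer1* calls of miR-125b, of Plus A and of Trim A held in all 13 alternatives, and that for Trim AG was lost without replicate 2 of Hypoxia MC (edgeR adjusted p = 0.0534).

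*Tnrc6b* was at 115, 115 and 120 CPM in Hypoxia MC. It was at 75.6, 82.9 and 77.4 CPM in Hypoxia miR-125b, a log2 fold change of -0.53 (SE 0.0398, edgeR adjusted p = 7.1e-07). Trim A brought 82.3, 62.5 and 59.6 CPM (-0.73, SE 0.114, edgeR adjusted p = 0.00104) and Trim AG 58.9, 42.0 and 50.9 CPM (-1.14, SE 0.110, edgeR adjusted p = 4.1e-05). Every one of these libraries was below every MC library. Plus A stayed at 111, 104 and 109 CPM, just below MC, with a log2 fold change of -0.09 (SE 0.047, edgeR adjusted p = 0.138). Trim AGU was spread from 36.8 to 77.3 CPM (-0.87, SE 0.212, edgeR adjusted p = 0.0233). Its call was lost without any 1 of the MC libraries or without Trim AGU replicate 3, at adjusted p-values of 0.0694 to 0.0874. *Tnrc6b* is the longest of the 10 genes in the tables, at 17566 bases. With the length trend removed the log2 fold changes were -0.29 (miR-125b), -0.36 (Trim A), -0.74 (Trim AG) and -0.25 (Trim AGU), all still called. *Tnrc6a* had values of -0.11 to 0.15 against MC and was called for Plus A alone (edgeR adjusted p = 0.0373), where the libraries overlapped and the call was lost in 7 of 13 alternatives. With the length trend removed it was called higher for all 5 mimics (edgeR adjusted p at most 0.0486), at 0.20 for Plus A and, with a change of sign, at 0.13, 0.14, 0.16 and 0.35 for miR-125b and the shortened mimics from Trim A to Trim AGU.

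Among the Argonaute genes, *Ago3* was at 3.47, 3.53 and 4.15 CPM in Hypoxia MC. In Hypoxia Trim AG it was at 6.03, 7.31 and 6.84 CPM (log2 fold change 0.92, SE 0.152, edgeR adjusted p = 8.5e-04), in Hypoxia Trim A at 6.12, 5.83 and 5.88 CPM (0.72, SE 0.14, edgeR adjusted p = 0.00304) and in Hypoxia Plus A at 4.58, 6.68 and 5.82 CPM (0.64, SE 0.173, edgeR adjusted p = 0.00995). None of these libraries fell as low as MC, and the 3 calls held in all 13 alternatives. Under Trim AGU it was at 5.19, 1.76 and 4.93 CPM (0.21), and without the low replicate 2 the log2 fold change was 0.53 (edgeR adjusted p = 0.0344). *Ago1* moved the other way from its chromosomal neighbour. MC had 9.85, 11.2 and 11.3 CPM and Trim AG 8.23, 6.69 and 7.05 CPM (-0.50, SE 0.125, edgeR adjusted p = 0.00804). For miR-125b, Plus A and Trim A the *Ago1* log2 fold changes were -0.30, -0.34 and -0.39, with edgeR adjusted p-values of 0.0391, 0.0301 and 0.0279, each lost in at least 5 of 13 alternatives. For *Ago2* the libraries of Plus A, at 20.7, 20.8 and 21.5 CPM, were above 17.2, 17.3 and 19.5 CPM in MC (0.25, SE 0.0745, edgeR adjusted p = 0.016), and this call was lost in 3 alternatives. For Trim A the *Ago2* log2 fold change was -0.06, and without replicate 1 of Hypoxia Trim A it was -0.30 (edgeR adjusted p = 0.0164).

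Of the remaining genes, *Dgcr8* was at 55.9, 50.2 and 53.3 CPM in Hypoxia MC and at 40.9, 40.5 and 41 CPM in Hypoxia miR-125b, a log2 fold change of -0.35 (SE 0.049, edgeR adjusted p = 1.1e-04) that held in all 13 alternatives. It was -0.17 for Plus A and -0.23 for Trim A, with edgeR adjusted p-values of 0.029 and 0.0334, lost in 6 and 7 of the alternatives. *Drosha* rose slightly for miR-125b (0.15, SE 0.0364, edgeR adjusted p = 0.00456) and Plus A (0.23, SE 0.055, edgeR adjusted p = 0.00471), the MC libraries lying at 72.3 to 75.7 CPM and those of both mimics at 77.8 to 91.3 CPM. *Drosha* and *Dgcr8*, partners in the Microprocessor, had opposite signs for both mimics. *Xpo5* was higher for Plus A alone, at 117, 121 and 114 CPM against 100, 103 and 107 CPM (0.21, SE 0.0469, edgeR adjusted p = 0.00381). *Tarbp2* was called for miR-125b (0.18, SE 0.0599, edgeR adjusted p = 0.0216), although the libraries overlapped, and that call was lost in 6 of 13 alternatives. With replicate 1 of Hypoxia Trim A left out, the values for Trim A were -0.15 for *Xpo5*, 0.18 for *Tarbp2* and -0.22 for *Tnrc6a*, with edgeR adjusted p-values of 0.0157, 0.0293 and 0.00207.

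**Figure D3:**
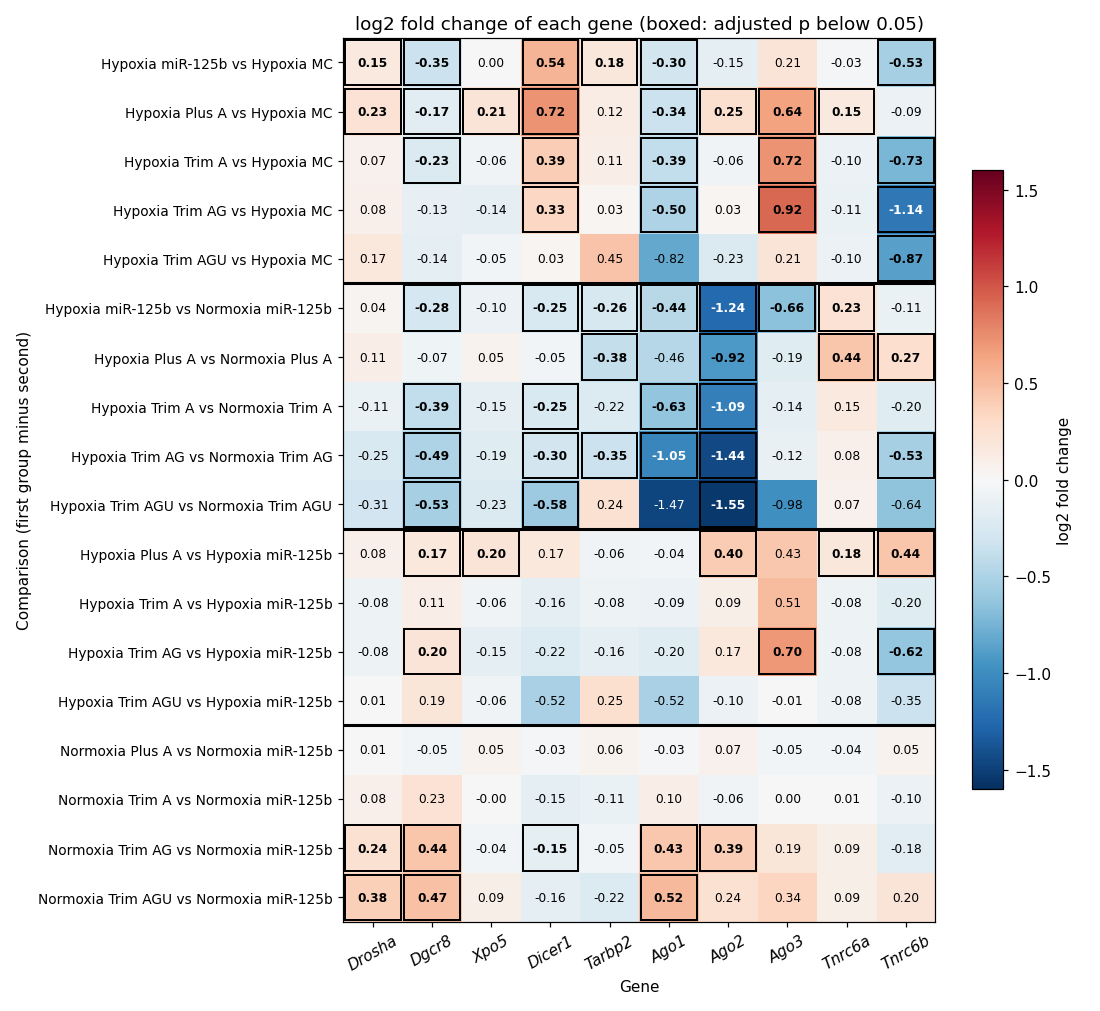
Log2 fold change (colour and number) of the 10 genes (columns) in the 18 comparisons (rows, first group minus second), with boxes around an adjusted p below 0.05 and thick lines between the families of comparisons. The *Ago2* column is boxed in all 5 rows of hypoxia against normoxia, and *Dicer1* and *Tnrc6b* are each boxed in 4 of the 5 rows against MC with opposite colours.

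For Normoxia MC, group means from the authors' table with Normoxia Plus A were used. The authors' mean of *Dicer1* was 2856 in Plus A and 1999 in MC, and that of *Tarbp2* was 1209 and 910.1. Those of *Tnrc6b* were 2468 and 3220, of *Dgcr8* 1339 and 1762, and of *Ago1* 316.6 and 408.8. *Ago2* (1094 and 932.4), *Ago3* (178.2 and 165.1), *Xpo5* (3126 and 2955), *Drosha* (2185 and 2215) and *Tnrc6a* (3440 and 3890) had ratios of Plus A to MC from 0.884 to 1.17. These values are given here without a spread or a test. They have the scale of the authors' normalization, and are not on the CPM scale.

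Each isomiR was then compared with miR-125b at the same oxygen level, to see whether a change of 1 to 3 bases at the 3′ end moved the machinery genes. In hypoxia, Plus A, with an added A, had higher levels of *Dgcr8*, *Xpo5*, *Ago2*, *Tnrc6a* and *Tnrc6b* than miR-125b. Trim AG, without its last bases A and G, had higher *Dgcr8* and *Ago3* and lower *Tnrc6b*. The *Dgcr8* call for Trim AG (0.20, SE 0.0633, edgeR adjusted p = 0.0324) was lost in 5 of 13 alternatives, among them the replicate block (edgeR adjusted p = 0.0964). In normoxia the calls were for the shorter mimics, with *Drosha*, *Dgcr8* and *Ago1* higher under both Trim AG and Trim AGU. The 4 comparisons at each oxygen level share the miR-125b libraries.

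In hypoxia, Plus A had 5 of the 10 genes higher than miR-125b, where 8.36% of all genes tested were higher, and 0 lower, where 7.55% were. Trim A had 0 higher (1.27%) and 0 lower (0.92%). Trim AG had 2 higher (20.9%) and 1 lower (20.5%), and Trim AGU 0 higher (2.09%) and 0 lower (2.06%). In normoxia, Plus A had 0 higher and 0 lower, beside 0% of all genes in each direction. At an unadjusted p below 0.05, 2.73% of the genes tested in that comparison passed in edgeR, and the lowest adjusted p was 0.824. With replicate 1 of both groups left out, 0 of the 10 genes were called as well. Trim A in normoxia had 0 higher (1.43%) and 0 lower (0.489%), Trim AG 4 higher (19%) and 1 lower (19.6%), and Trim AGU 3 higher (13.3%) and 0 lower (11.7%). Without replicate 1 of Hypoxia Trim A, 6 genes were called for Trim A in hypoxia, and without replicate 2 of Hypoxia Trim AGU, 2 for Trim AGU (1 without its replicate 1). Plus A in hypoxia had 2 called without replicate 2 of Hypoxia Plus A or without any single library of Hypoxia miR-125b. Trim AG in hypoxia had 5 without its replicate 1. In normoxia, Trim AG had 3 without its replicate 2 and 2 without its replicate 3, Trim AGU had 5 without its replicate 1, and Trim A had 1 without replicate 1 of Normoxia miR-125b.

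For *Tnrc6b* in hypoxia, Plus A was above miR-125b in every library (111, 104 and 109 against 75.6, 82.9 and 77.4 CPM), with a log2 difference of 0.44 (SE 0.0479, edgeR adjusted p = 8.2e-04). Trim AG was below it in every library (58.9, 42.0 and 50.9 CPM), with a log2 difference of -0.62 (SE 0.11, edgeR adjusted p = 0.00289). Trim A differed by -0.20 (95% interval -0.43 to 0.02) and Trim AGU by -0.35 (95% interval -0.77 to 0.07), both with overlapping libraries. Without replicate 1 of Hypoxia Trim A, the difference for Trim A was -0.35 (edgeR adjusted p = 5.0e-04). With the length trend removed the *Tnrc6b* differences were 0.25 under Plus A and -0.47 under Trim AG, both still called, and -0.07 under Trim A and 0.02 under Trim AGU. *Ago3* was at 4.02, 4 and 4.52 CPM under miR-125b and higher under Trim AG by 0.70 on the log2 scale (SE 0.141, edgeR adjusted p = 0.00496). Trim A gave 0.51 (95% interval 0.27 to 0.75, edgeR adjusted p = 0.0764), with no overlap, and this difference was called by DESeq2 (adjusted p = 0.0266) and by edgeR without replicate 1 of Hypoxia Trim A (0.50, adjusted p = 0.0201). *Ago2* was higher under Plus A by 0.40 (SE 0.0803, edgeR adjusted p = 0.0117), and no library of Plus A fell to the level of miR-125b. The smaller differences of Plus A were 0.17 for *Dgcr8*, 0.20 for *Xpo5* and 0.18 for *Tnrc6a*, with edgeR adjusted p-values of 0.0491, 0.0171 and 0.0406, lost in 11, 5 and 7 of 13 alternatives. All 5 calls for Plus A were lost when the 33 libraries were fitted together.

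*Dicer1* was not called between any isomiR and miR-125b in hypoxia, with all libraries in the fit. For Trim AGU the difference was -0.52 (95% interval -0.84 to -0.20, edgeR adjusted p = 0.122), and without replicate 2 it was -0.37 (edgeR adjusted p = 0.0165). Trim AG differed by -0.22 (SE 0.0793, edgeR adjusted p = 0.053) and by -0.28 without replicate 1 (edgeR adjusted p = 0.00477). Trim A differed by -0.16 (95% interval -0.32 to 0.01, edgeR adjusted p = 0.286) and by -0.24 without replicate 1 of Hypoxia Trim A (edgeR adjusted p = 0.00125). The intervals for *Drosha* ran from -0.26 to 0.10 for Trim A and from -0.20 to 0.21 for Trim AGU. Without replicate 1 of Hypoxia Trim A or of Hypoxia Trim AG, *Drosha* was lower by a log2 difference of -0.18 under each (edgeR adjusted p = 0.00831 and 0.0329). Leaving out that Trim A library also gave *Xpo5* at -0.15 and *Tnrc6a* at -0.18 (edgeR adjusted p = 0.0198 and 0.00566). For *Ago1* under Trim AGU the interval ran from -1.58 to 0.53, the widest of all.

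In normoxia, *Dgcr8* was at 46.9, 45.8 and 47.5 CPM under miR-125b. It was at 68.6, 63.3 and 64.1 CPM under Trim AG (log2 difference 0.44, SE 0.0535, edgeR adjusted p = 2.6e-04) and at 66.2, 68.6 and 60.4 CPM under Trim AGU (0.47, SE 0.0775, edgeR adjusted p = 0.0026). Both groups were above miR-125b without overlap and both calls held in all 13 alternatives. *Drosha* moved the same way, from 67.9, 75.8 and 77.1 CPM to 86.7, 90.8 and 91.3 CPM under Trim AG (0.24, SE 0.0606, edgeR adjusted p = 0.0124) and to 94.3, 96.7 and 98.0 CPM under Trim AGU (0.38, SE 0.0778, edgeR adjusted p = 0.00727). *Ago1* was higher by 0.43 and 0.52 (edgeR adjusted p = 0.0221 and 0.027), each lost in 4 of 13 alternatives. Without replicate 1 of Normoxia miR-125b these *Ago1* differences were 0.33 and 0.42 (edgeR adjusted p = 0.0527 and 0.0843). Under Trim A, *Dgcr8* was at 54.1, 54.5 and 54.9 CPM, above miR-125b without overlap (0.23, edgeR adjusted p = 0.0571), and was called by DESeq2 (adjusted p = 0.0377). *Ago2* was called for Trim AG, at 47.9, 47.7 and 47.7 CPM against 36.7, 33.6 and 35.6 CPM (0.39, SE 0.056, edgeR adjusted p = 6.2e-04). *Dicer1* under Trim AG was the call in the other direction (-0.15, SE 0.0487, edgeR adjusted p = 0.0401), and it was lost in 9 of 13 alternatives. For Plus A in normoxia the differences of all 10 genes were between -0.05 and 0.07, with the widest interval for *Ago1*, from -0.40 to 0.34. Replicate 1 of each group lay with the other group for *Ago1*, *Drosha* and *Tnrc6a*, as given above. These values therefore do not show that Plus A and miR-125b acted alike in normoxia. The same libraries enter hypoxia against normoxia under both mimics, the other normoxia comparisons with miR-125b and all interactions.

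Whether an isomiR's difference from miR-125b was unlike in hypoxia, with its own medium, and normoxia was tested as an interaction. For Trim AG, 3 of the 10 genes were called, where 22.7% of all genes were called in either direction. *Ago1* was 0.43 higher than miR-125b in normoxia and differed by -0.20 in hypoxia, a log2 interaction of -0.64 (SE 0.184, edgeR adjusted p = 0.0243). *Tnrc6b* differed by -0.18 in normoxia and -0.62 in hypoxia (interaction -0.45, SE 0.14, edgeR adjusted p = 0.034), and *Dgcr8* by 0.44 and 0.20 (interaction -0.25, SE 0.0782, edgeR adjusted p = 0.0372). For Plus A, Trim A and Trim AGU 0 of the 10 were called, where 0.0385%, 0.811% and 0.966% of all genes were. The interaction nearest the threshold among these was *Tnrc6b* for Plus A, at 0.38 (SE 0.0864, edgeR adjusted p = 0.0962), which DESeq2 called (adjusted p = 0.00777). For Trim AG the count was 6 without replicate 1 of Hypoxia Trim AG, 1 without replicate 1 or 3 of Hypoxia miR-125b or any single library of Normoxia miR-125b, and 0 without replicate 2 of Hypoxia miR-125b, replicate 2 or 3 of Normoxia Trim AG or replicate 3 of Hypoxia Trim AG. For Trim A it was 1 without replicate 1 of Hypoxia Trim A, and for Trim AGU 1 without replicate 1 or 2 of Hypoxia Trim AGU. An interaction with MC was not tested, and the trend on gene length was not removed in any interaction fit.

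The balance within each family also differed between groups. Of the summed FPKM of the 3 Argonaute genes, *Ago2* held 66.2% ± 2.55 (SD, n = 3) in Normoxia miR-125b and 54.1% ± 1.55 in Hypoxia miR-125b, without overlap (63.5% to 68.6% and 52.8% to 55.8%). Under Trim AG the share was 66.8% ± 1.88 in normoxia and 54.5% ± 1.59 in hypoxia. Under Trim AGU it was 62.7% ± 1.73 and 61.3% ± 14.5, with hypoxia libraries from 50% to 77.6%. *Ago3* took 10.2% ± 0.863 in Normoxia Trim AG and 20.9% ± 2.75 in Hypoxia Trim AG, its highest share in any group. *Ago1* had its highest share in Hypoxia MC, at 35% ± 1.52. In the GW182 pair, *Tnrc6b* held 26.5% ± 0.275 in Hypoxia MC, 20.3% ± 0.2 in Hypoxia miR-125b and 14.9% ± 1.16 in Hypoxia Trim AG, with *Tnrc6a* as the rest. *Ago4* and *Tnrc6c* are not part of these shares. No test was made on the shares.

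**Figure D4:**
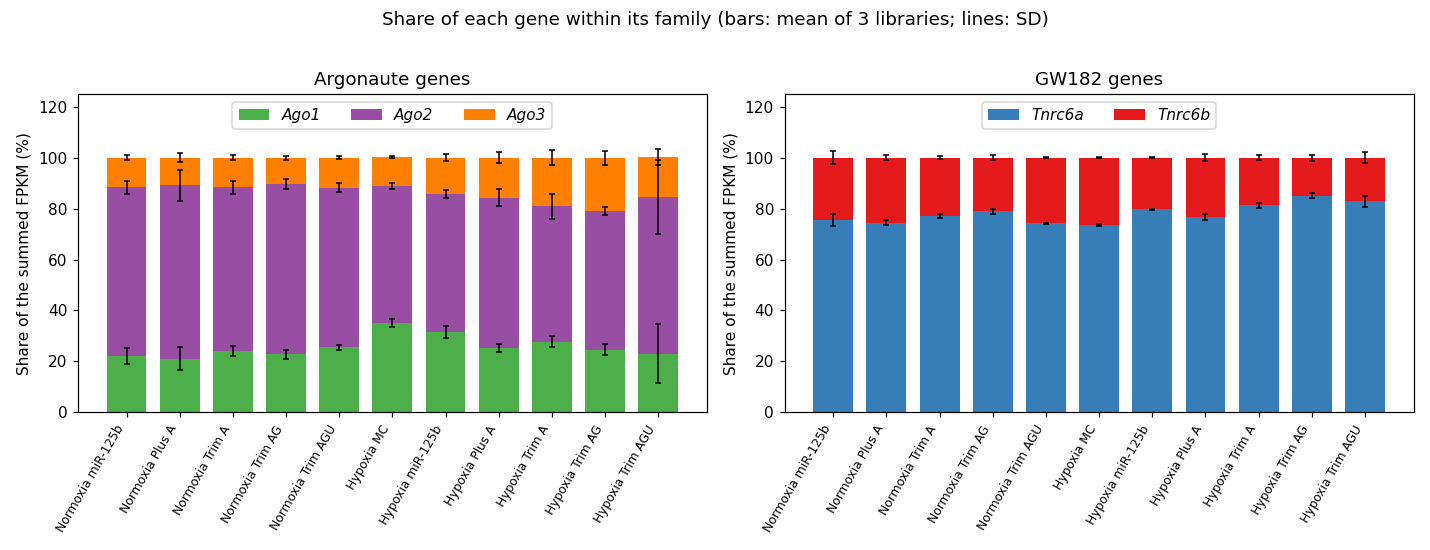
Share of each gene in the summed FPKM of the 3 Argonaute genes (left) and of *Tnrc6a* and *Tnrc6b* (right), in percent from 0, as the mean of 3 libraries per group with the SD as lines. *Tnrc6b* takes 26.5% in Hypoxia MC and 14.9% in Hypoxia Trim AG.

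As a description over libraries, which share their group, log2 CPM of the members went together to different degrees. Over the 18 hypoxia libraries Pearson's r was 0.948 between *Xpo5* and *Tnrc6a* and 0.841 between *Tnrc6a* and *Tnrc6b*. Replicate 2 of Hypoxia Trim AGU held the lowest values of *Xpo5*, *Tnrc6a* and *Tnrc6b* in any library, at 66.5, 101 and 36.8 CPM. No trend on gene length was removed here. *Tarbp2*, the shortest of the genes, had a negative r with each of the other 9 in hypoxia, down to -0.795 with *Ago1*, and replicate 2 of Hypoxia Trim AGU is among these points. *Drosha* and *Dgcr8* had an r of 0.879 over the 15 normoxia libraries and 0.0195 in hypoxia. Over the 11 group means, among the 12304 genes whose mean reached 1 CPM, the pattern most like *Ago2* was that of *Spry4* (r = 0.985), followed by *Extl3* (0.982) and *Igf2bp1* (0.981). The nearest to *Dicer1* was *Tmem104* (0.951), to *Tnrc6b* *Gtf3c1* (0.965), to *Tnrc6a* *Tp53bp2* (0.982), to *Ago1* *Smad5* (0.982) and to *Ago3* *Kpna4* (0.963). *Fancm* (0.965) was nearest to *Dgcr8*, *Srrm1* (0.933) to *Drosha*, *Per1* (0.964) to *Xpo5* and *Pccb* (0.925) to *Tarbp2*.

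Other genes of the pathway were read from 6 fixed lists. Their counts, medians and values are from the main edgeR fit of each pair, with no trend on gene length removed and no alternative read. For miR-125b against MC in hypoxia, all genes of 4000 bases or more had a median log2 fold change of -0.11. Genes under 2000 bases had 0.07, and the part of length in the list values was not tested. For miR-125b against MC in hypoxia, where 29.5% of all genes were higher and 30% lower, 3 of 12 nuclear cofactors of the Microprocessor were higher and 5 lower, with a list median of 0.03 beside 0.00 over all genes. The RNA helicase gene *Ddx5* was at 533, 562 and 542 CPM against 845, 838 and 848 CPM (log2 fold change -0.59, edgeR adjusted p = 2.1e-08). *Smarca4* fell by 0.40 on the log2 scale (edgeR adjusted p = 8.4e-07). Of 13 genes of export, Dicer partners and loading, 6 were higher and 3 lower (median 0.10), among them *Prkra*, which encodes the other Dicer partner PACT, at 45.5, 43.9 and 38.4 CPM against 71.9, 70.4 and 64.8 CPM (-0.66, edgeR adjusted p = 6.7e-06). The editing enzyme gene *Adarb1* was lower by a log2 fold change of -1.35 (edgeR adjusted p = 1.4e-06). Of 16 other Argonaute, GW182 and associated genes, 2 were higher and 4 lower (median 0.00). *Snd1*, a nuclease found with the silencing complex, was higher (0.76, edgeR adjusted p = 3.6e-09) and *Ipo8*, an import receptor, lower (-0.56, edgeR adjusted p = 1.3e-05).

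The effector and decay lists were read in the same comparison. Of 18 deadenylation and poly-A binding genes 4 were higher and 11 lower, with a median of -0.16. The deadenylase gene *Cnot6l* was at 14.8, 16.0 and 13.9 CPM against 25.9, 26.4 and 23.9 CPM (-0.73, edgeR adjusted p = 6.3e-06), while *Pabpc4*, a poly-A binding protein gene, was higher (0.72, edgeR adjusted p = 4.3e-09). Of 14 decapping and repression genes 13 were matched and tested, 4 higher and 5 lower (median -0.07). *Lsm14b*, linked to repressed messages, was at 28.7, 30.7 and 31.2 CPM against 60.9, 60.7 and 62.5 CPM (-0.99, edgeR adjusted p = 2.3e-08), and the decapping gene *Dcp1b* was higher (0.44, edgeR adjusted p = 0.00226). Of 16 genes of 3′ tailing, trimming and turnover 14 were tested, with 3 higher, 9 lower and a median of -0.34. *Dis3l2*, an exonuclease gene, fell from 17.5, 17.5 and 17.7 CPM in MC to 7.42, 7.78 and 8.62 CPM (-1.11, edgeR adjusted p = 1.0e-06), and *Eri1*, another exonuclease gene, differed by -0.71 (edgeR adjusted p = 3.7e-06).

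For the other mimics against MC in hypoxia, the tailing and trimming list had 4 higher and 9 lower of 14 under Plus A (28% and 28.6% of all genes). Under Trim A there were 1 and 9 (26% and 26.1% of all genes), under Trim AG 4 and 7 (29.8% and 29.6%), and under Trim AGU 1 and 3 (15.3% and 14.6%). Its medians were -0.23, -0.37, -0.16 and -0.09, and these comparisons share the MC libraries. The deadenylation list, beside the same shares of all genes, had 5 higher and 8 lower of 18 under Plus A. Trim A gave 2 and 9 here, Trim AG 5 and 8, and Trim AGU 2 and 2. Between hypoxia and normoxia under miR-125b where 24.7% of all genes were higher and 26.1% lower, the deadenylation list was divided, with 5 higher and 4 lower of 18, and the tailing and trimming list had 2 higher and 6 lower of 14. *Cnot7* and *Tob2* were higher in hypoxia (0.49 and 0.45, edgeR adjusted p = 3.0e-04 and 2.1e-04), and *Eri1* and *Pnpt1* lower (-0.40 and -0.37, edgeR adjusted p = 0.00164 and 0.00298). The nuclear cofactors had 4 higher and 4 lower of 12. *Ddx17*, a helicase gene, was higher (0.60, edgeR adjusted p = 5.9e-06). *Ncbp2*, a cap-binding gene, was called higher as well (2.60, edgeR adjusted p = 0.0274), but replicate 3 of Hypoxia miR-125b was at 44.7 CPM and the other hypoxia libraries at 4.98 and 3.74 CPM. In the loading list, with 1 higher and 6 lower of 13, *Tsnax* was higher (0.67, edgeR adjusted p = 5.5e-06) and *Adarb1* lower (-0.76, edgeR adjusted p = 4.2e-04). Of the associated genes 1 was higher and 6 lower of 16, with *Snd1* at -0.54 and *Mov10*, a helicase gene, at -0.49 (edgeR adjusted p = 5.3e-06 and 1.3e-04). The decapping list had 3 higher and 1 lower of 13, with *Lsm14b* at 0.34 and *Eif4e2*, which encodes a cap-binding repressor, at -0.25 (edgeR adjusted p = 0.00652 and 0.0019).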

How the data were processed

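RNA of H9C2 cells was sequenced from non-stranded poly-A libraries. The submitters' processing notes name HISAT2 and StringTie, with no version, and the genome build is not given in the sources used here. The authors deposited raw counts per gene and library, FPKM values, gene lengths, and the log2 fold changes and p-values of their own test of each pair of groups, which were not used. For Normoxia MC, group means deposited by the authors, a normalized expression signal, were used. Without strand, reads of overlapping genes cannot be told apart. Tables were joined on the gene identifier in Python 3.11.15 (pandas 2.3.3, numpy 2.4.6). A library found in more than 1 table had the same counts in each (0 conflicts), and a gene left out of a table was given 0, where other tables listed at most 1 count. CPM was taken over the total count of the library, without TMM scaling.

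Each pair of groups was fitted with edgeR 4.0.16 in R 4.3.3 on its own libraries (TMM normalization, filterByExpr, quasi-likelihood test), and all 10 genes passed the filter in every fit. Interactions used the 12 libraries of an isomiR and miR-125b. A call is a Benjamini-Hochberg adjusted p-value below 0.05 over all genes tested, and the SE was taken as the size of the log2 fold change divided by √F of that test. Intervals named 95% are the log2 fold change ± 1.96 SE, a normal multiple that makes them narrow for so few libraries. The step was also run on simulated counts in which few genes changed. Many genes were called in these data, so that run does not give the error rates here. Alternatives were DESeq2 1.42.0, other normalizations, no filter, a replicate block, all libraries in 1 fit, leaving out single libraries, a lowess trend on gene length (span 0.3) and a fold change of at least 1.5. The fit of all libraries, the length trend and the fold change were not applied to the interactions. The genes, lists and tests were chosen with earlier results of these data known. Named genes are the 10 members, the 2 called genes of each list with the largest change and at least 1 CPM in 2 comparisons, and up to 3 genes most like each member by log2(CPM + 0.1). Error is the spread between libraries, which includes counting error. Figures were drawn with matplotlib.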

Additional observations from a re-analysis of the deposited data

Results flagged for a closer look

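For Trim AG against miR-125b, the difference between the mimics was unlike in hypoxia and normoxia for 3 of the 10 genes, by the interaction test in edgeR. *Ago1* had an interaction of -0.64 on the log2 scale, *Tnrc6b* of -0.45 and *Dgcr8* of -0.25. The *Ago1* value was called in 12 of 17 alternatives and ranged from -0.72 to -0.54. That of *Tnrc6b* was called in 9 of 17 and ranged from -0.56 to -0.34, and that of *Dgcr8* was called in 3 of 17 and ranged from -0.30 to -0.21. The signs did not change in any alternative run, but none of the 17 removed the trend on gene length. With that trend removed for Trim AG against miR-125b, *Tnrc6b* differed by -0.23 in normoxia and -0.47 in hypoxia. *Dgcr8* then differed by 0.42 and 0.28, and *Ago1* by 0.41 and -0.17. The interaction was not tested in this way. Over all genes, 22.7% had a called interaction for Trim AG. Hypoxia Trim AG was the deepest group, with 39940087 to 42672584 counts per library, and its part in these values was not tested.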

How the results depend on the processing

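Of 64 calls over the 18 comparisons, 62 were kept by DESeq2, 63 with RLE normalization, 59 with library size alone, 62 with no filter, 54 with the length trend removed, 40 with all libraries in 1 fit and 41 when each library was left out in turn. No call changed sign. With all libraries in 1 fit, members called against MC were 3 for miR-125b, 3 for Plus A and 3 for Trim AGU. Hypoxia against normoxia then gave 4 for miR-125b, 2 for Trim A and 8 for Trim AGU. Against miR-125b it gave 0 for Plus A and 2 for Trim AGU in hypoxia and 3 for Trim AG in normoxia. With a fold change of at least 1.5, counts against MC were 0 under miR-125b and 2 each under Plus A, Trim A and Trim AG. Those for hypoxia against normoxia were 2 under miR-125b, 1 under Plus A, and 2, 2 and 1 under the shortened mimics from Trim A to Trim AGU. Plus A against miR-125b in hypoxia and Trim AG and Trim AGU in normoxia had 0. With the length trend removed, Trim AGU against MC had 4, Plus A against miR-125b in hypoxia 3 and Trim A 1. Against MC, *Tnrc6a* changed sign there to 0.13 (miR-125b) and to 0.14, 0.16 and 0.35 under Trim A, Trim AG and Trim AGU, and *Xpo5* to 0.24 for Trim AGU. DESeq2 gave 6 for Trim AGU in hypoxia against normoxia, 1 for Trim A against miR-125b in hypoxia, 1 in normoxia and 1 for the Plus A interaction. A fold threshold can only remove calls, and the cause of the other shifts was not tested.

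Leaving out single libraries gave 4 to 6 members called against MC under miR-125b and 5 to 7 under Plus A. Trim A had 3 to 9, Trim AG had 3 to 4 and Trim AGU had 0 to 2. For hypoxia against normoxia, in the same order, the ranges were 6 to 7, 4 to 5, 3 to 7, 5 to 8 and 1 to 7. Against miR-125b in hypoxia they were 2 to 6 under Plus A and 0 to 6 under Trim A, with 2 to 5 under Trim AG and 0 to 2 under Trim AGU, and in normoxia 0 to 0, 0 to 1, 2 to 4 and 2 to 5. Interactions gave 0 to 0, 0 to 1, 0 to 6 and 0 to 1. Same-numbered libraries of compared groups did not deviate together (r from -0.161 to 0.0756), not every library was closest to its own number, and the labels name no shared batch. With the replicate block 54 calls were kept, and the counts were 3 for Trim A against MC, 1 for Trim AGU in hypoxia against normoxia and 3 for Plus A against miR-125b in hypoxia. *Ago1* and *Ago3* had as few as 45 and 56 counts in a library, which limits their precision.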
